A study of Mus musculus with 15 samples.

Results

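Cultured bone marrow mesenchymal stromal cells (MSC) were compared with P0 Emcn+ bone marrow endothelial cells (BMECs) by bulk RNA-seq, with 2 libraries in each group. Genes were taken from a count table of 44674 genes by their level. Symbols of predicted genes (Gm followed by a digit), numbered pseudogenes (-ps) and unnamed clones (Rik) were left out, which with blank symbols removed 18883 genes, and a remaining gene was kept when both libraries of at least 1 group held 5 counts per 1000000 counts of the library (CPM) or more. This left 11037 genes, of which 9070 passed in both groups, 1060 in MSC only and 907 in P0 Emcn+ only. Just inside the limit lay Zfp775, at 5.007 CPM in its lower P0 Emcn+ library, and just outside it Zfp54 and Zfp13, each at 4.996 CPM in the lower MSC library. All 11037 genes passed the filter on low counts and were tested, together with other genes of the table, 19401 in all.

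The study cultured whole bone marrow of adult mice in endothelial growth medium (EGM-2) and asked what the outgrowing ECs express when first sorted and on passage, with MSC as a mesenchymal reference. P0 Emcn+ BMECs were DAPI−CD45−tdTomato+ cells with surface endomucin (Emcn), sorted after about 2 weeks from marrow of tamoxifen-treated Tie2-CreERT2;Rosa26-tdTomato mice. MSC were DAPI−CD45−tdTomato+ cells sorted after about 2 weeks of culture in MesenCult medium, from marrow of Osx-Cre;Rosa26-tdTomato mice, whose Cre is driven by the promoter of the osteolineage factor Osx (Sp7). Per the study's methods mice of both lines were 4 to 6 months old and of either sex. The labels give both groups the genotype WT and repeat the whole marrow culture text for MSC, so reporter line and medium of MSC follow the study's methods. Both MSC libraries came from batch c of the labels, while P0 Emcn+ replicate 1 came from batch d and replicate 2 from batch a. Tamoxifen is described in the methods for the P0 line only. Batch, reporter line, tamoxifen treatment and medium therefore cannot be told apart from cell type in any value below. The same holds for the sex of the animals, since Y-linked transcripts given below also differ between the groups. Per the study's methods replicates were independent biological samples and cultures began from separate animals, though the labels tie no library to an animal.

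Marrow sinusoidal endothelium lines the wide venous vessels of the marrow, takes up debris and modified proteins through scavenger receptors, and holds its cells together with VE-cadherin. Marrow stromal cells lie around these vessels, make fibrillar and proteoglycan matrix, supply hematopoietic cells with factors such as Cxcl12 and Kit ligand, and can give rise to bone, cartilage and fat. Both kinds of cell exchange signals, since stromal cells secrete ligands whose receptors sit on ECs and ECs secrete ligands for receptors of stromal cells.

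The library totals were 35628327 and 32852945 counts for MSC and 31555985 and 25875548 for P0 Emcn+, so that 3 counts, the limit a count of 0 allows, equal 0.0842 to 0.116 CPM. Intervals and limits of this kind cover counting error only. A gene was called when edgeR's quasi-likelihood test gave a Benjamini-Hochberg adjusted p under 0.05 and the log2 fold change (log2FC, MSC over P0 Emcn+) was beyond 1.5 in size. By this rule 6082 of the 19401 tested genes were called, or 31.3%, of which 3898 (20.1%) were higher in MSC and 2184 (11.3%) higher in P0 Emcn+. The median log2FC of all tested genes was 0.09. Both MSC libraries lay above both P0 Emcn+ libraries in 40.8% of tested genes and below them in 38.4%, so a gene without overlap between the groups is common here. Among the 11037 genes 1329 were called higher in MSC, 1235 higher in P0 Emcn+ and 8473 not called, counts which only account for these genes, since their choice used the levels in the same libraries.

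The MSC libraries differed from each other in endothelial genes. Over 30 pan-endothelial genes the level in MSC replicate 2 was a median of 9.56 times that in replicate 1, with a range from 1.01 to 26 times, and 21 of the 30 differed by over 4 times. Between the P0 Emcn+ replicates the same median was 0.963. Of the 10948 genes that reached 5 CPM in a group and had counts in all 4 libraries, 189 were over 4 times higher in MSC replicate 2 than in replicate 1 and 16 over 4 times lower, against 80 and 32 between the P0 Emcn+ replicates. The 6 endothelial markers (Cdh5, Pecam1, Tek, Kdr, Erg, Emcn) summed to 37.6 CPM in MSC replicate 1 and 322 CPM in replicate 2, or 0.392% and 3.35% of their level in P0 Emcn+. Whether MSC replicate 2 held endothelial cells was not tested, and bulk RNA cannot tell fewer cells of a type from less RNA per cell. List counts are therefore also given without this library, where the lone MSC library is assumed to vary like the other groups. The counts called in each direction were the same without it for endothelial transcription factors, angiogenic receptors, glycolysis, interferon and immediate early genes. For the other lists they stand beside the list, except for skeletal muscle, erythroid and sex-linked genes. Among these, only the skeletal muscle counts changed.

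**Figure D1:**
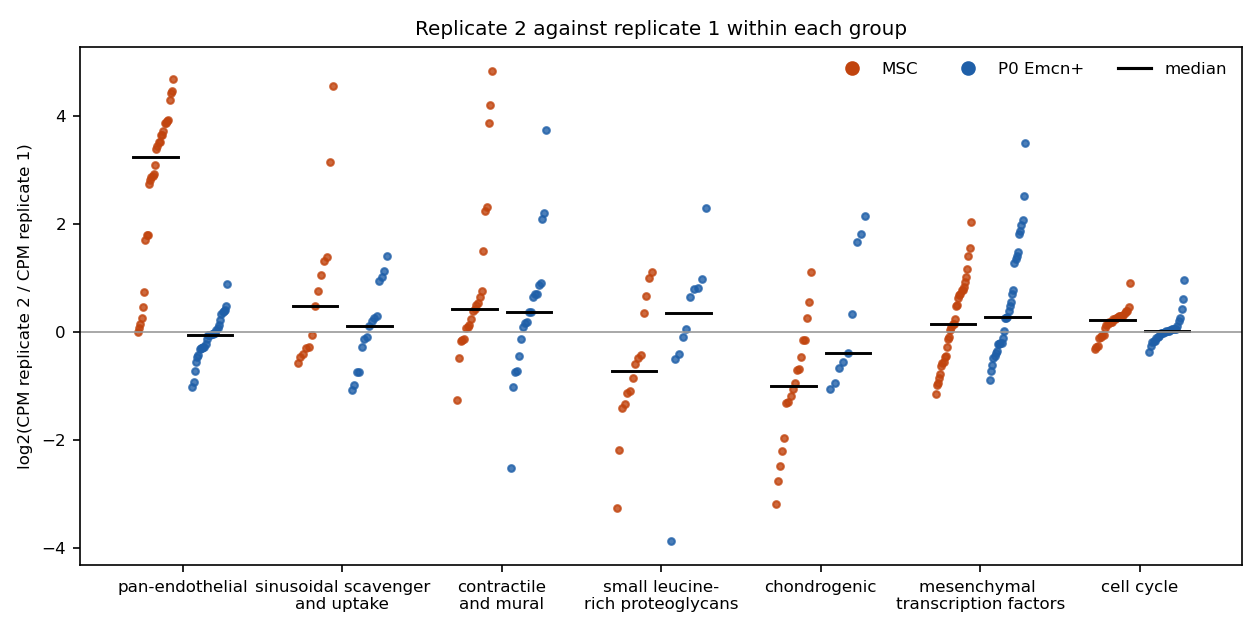
Each point is the log2 ratio of CPM in replicate 2 to replicate 1 for a gene with counts in both, for 7 gene lists, with MSC in red, P0 Emcn+ in blue and black bars at the medians. The pan-endothelial genes of MSC stand above 0, with a median ratio of 9.56, while the same genes in P0 Emcn+ lie around 0.

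The 4 genes that mark the groups separated them in every library. Cdh5, which encodes VE-cadherin of the endothelial adherens junction (GRCm38 chr8:104101625-104144511), stood at 7.86 and 156 CPM in MSC and at 6222 and 5118 CPM in P0 Emcn+. Its log2FC was −6.08 ± 1.57 (SE, adjusted p = 0.009), and −9.42 without MSC replicate 2. Stab2, the hyaluronan and scavenger receptor of sinusoidal endothelium (chr10:86841198-87008025), had 1.09 and 0.791 CPM in MSC against 845 and 702 CPM in P0 Emcn+, with a log2FC of −9.61 ± 0.84. The MSC level of Stab2 was thus alike in both libraries, unlike that of Cdh5. Prelp, a small leucine-rich proteoglycan of connective tissue (chr1:133910304-133921414), had 3955 and 2822 CPM in MSC and 5.61 and 11.2 CPM in P0 Emcn+, with a log2FC of 8.73 ± 0.54. Col1a1, the α1 chain of type I collagen (chr11:94936224-94953042), had 4752 and 1599 CPM in MSC and 57.4 and 64.4 CPM in P0 Emcn+, with a log2FC of 5.78 ± 0.57. The groups did not overlap in any of these 4 genes.

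Promoters of genes at each end of the comparison are shown as examples of each group: Emcn and Stab2, high in P0 Emcn+, and Prelp and Fmod, high in MSC. The promoters of Cdh5 and Col1a1 were not used here. Each run covers 250 bases before to 50 bases after the gene's start, 5′ to 3′ on the gene's strand, from RefSeq on GRCm38.p6. Capitals mark matches on either strand to the letters searched. The first motif was the Goldberg-Hogness box, spelled TATAAA. The second was the usual binding element of the nuclear factor Y, spelled CCAAT. The third was an ETS factor core with its flank, spelled CAGGAA. The last was a SOX factor core, spelled AACAAT. In this order the motifs occur in 13.6%, 37.4%, 30.6% and 10.7% of the 32851 promoters of this length. Emcn lies on the forward strand (chr3:137340828-137341127), Stab2 on the reverse strand (chr10:87007893-87008192), Prelp on the reverse strand (chr1:133921352-133921651) and Fmod on the forward strand (chr1:134037004-134037303).
Emcn: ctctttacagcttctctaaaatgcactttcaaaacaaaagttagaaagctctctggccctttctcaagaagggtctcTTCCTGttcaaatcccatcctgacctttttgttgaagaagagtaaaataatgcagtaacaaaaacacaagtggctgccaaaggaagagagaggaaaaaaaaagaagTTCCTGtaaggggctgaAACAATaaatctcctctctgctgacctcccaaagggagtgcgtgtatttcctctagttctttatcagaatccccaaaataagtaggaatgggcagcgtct
Stab2: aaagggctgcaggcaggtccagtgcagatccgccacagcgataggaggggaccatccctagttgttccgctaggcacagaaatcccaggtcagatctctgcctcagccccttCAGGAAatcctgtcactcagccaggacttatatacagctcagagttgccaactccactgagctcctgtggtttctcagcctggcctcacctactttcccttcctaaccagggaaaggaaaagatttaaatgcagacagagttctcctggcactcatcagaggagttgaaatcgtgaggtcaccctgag
Prelp: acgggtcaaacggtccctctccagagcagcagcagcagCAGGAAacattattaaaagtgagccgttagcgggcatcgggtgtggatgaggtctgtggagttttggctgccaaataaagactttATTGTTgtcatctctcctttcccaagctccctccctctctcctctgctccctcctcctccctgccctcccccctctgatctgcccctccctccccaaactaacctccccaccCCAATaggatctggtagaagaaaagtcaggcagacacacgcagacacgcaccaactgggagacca
Fmod: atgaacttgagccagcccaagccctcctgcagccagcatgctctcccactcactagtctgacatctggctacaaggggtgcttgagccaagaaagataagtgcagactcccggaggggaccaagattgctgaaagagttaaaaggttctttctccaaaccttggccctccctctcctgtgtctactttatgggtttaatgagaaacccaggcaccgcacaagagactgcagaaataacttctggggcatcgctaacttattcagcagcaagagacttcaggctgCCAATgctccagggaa
The Emcn promoter held the ETS letters at −173 and −67 on the reverse strand and the SOX letters at −50, counted from the start site. Stab2 held the ETS letters at −138. Prelp held the ETS letters at −212, the SOX letters at −127 on the reverse strand and CCAAT at −15, and Fmod held CCAAT at 35. None of the 4 windows held TATAAA, and a match is a description of the letters, not of binding.

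**Figure D2:**
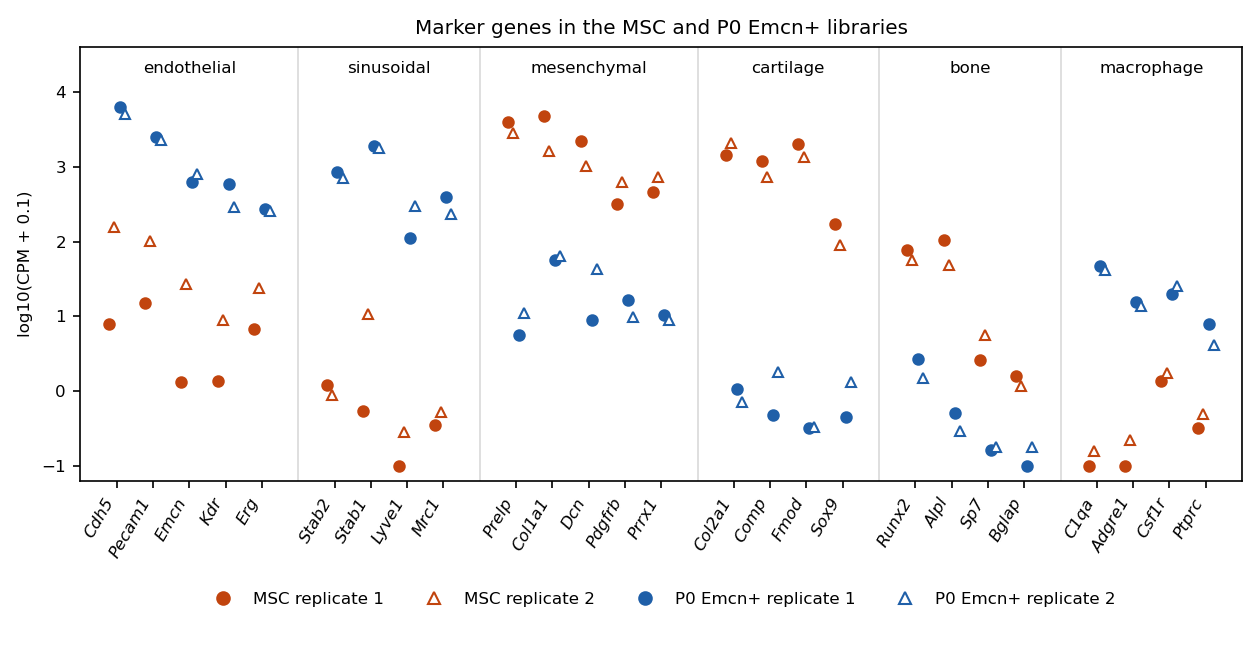
Level of marker genes as log10(CPM + 0.1) in each of the 4 libraries, with circles for replicate 1, triangles for replicate 2, MSC in red and P0 Emcn+ in blue. The 2 groups do not overlap in any gene shown, and Cdh5, Pecam1, Emcn, Kdr and Erg lie higher in MSC replicate 2 than in MSC replicate 1, while Stab2 does not.

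All 30 pan-endothelial genes were called higher in P0 Emcn+, with a median log2FC of −5.71, against 11.3% and 0.09 over all tested genes. Without MSC replicate 2, 28 of the 30 were called and the median was −8.33. Over all alternative settings 24 to 30 were called, fewest when batch terms were added to the fit. Emcn itself, the sialomucin used for the sort, had 1.23 and 26.7 CPM in MSC and 631 and 798 CPM in P0 Emcn+. Pecam1, the junctional adhesion molecule CD31, had 15 and 101 CPM in MSC and 2474 and 2264 CPM in P0 Emcn+, with a log2FC of −5.31 ± 1.16. Both genes were higher in P0 Emcn+ than in either MSC library, and both were more than 5 times higher in MSC replicate 2 than in replicate 1. Tek, the angiopoietin receptor Tie2 whose promoter drives the CreERT2 of the P0 mice, stood at 5.47 and 5.51 CPM in MSC and at 168 and 125 CPM in P0 Emcn+ (log2FC −4.68 ± 0.40), with no such difference between the MSC libraries. The smallest contrasts of the list were those of the TGF-β co-receptor Eng, at 139 and 146 CPM in MSC against 580 and 754 CPM, and of the sialomucin Cd34, at 111 and 123 CPM in MSC against 319 and 417 CPM. The call of Cd34 (log2FC −1.60 ± 0.56) was lost without any of the 4 libraries, where its log2FC lay between −1.81 and −1.42. Vwf (−2.58 ± 0.79) was not called without MSC replicate 1 (−2.48), MSC replicate 2 (−2.70) or P0 Emcn+ replicate 2 (−2.35).

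Genes of sinusoidal scavenging and uptake were mostly higher in P0 Emcn+, at 73.3% against 11.3% of all tested genes. The share higher in MSC was 6.67%, against 20.1%. Of 15 tested, 11 were called higher in P0 Emcn+, 1 higher in MSC and 3 not called, with a median log2FC of −5.71, and the counts were the same without MSC replicate 2. Stab1, a scavenger receptor of sinusoidal ECs and macrophages, had 0.449 and 10.7 CPM in MSC and 1883 and 1768 CPM in P0 Emcn+. Lyve1, a hyaluronan receptor, had 0 and 0.183 CPM in MSC and 113 and 299 CPM in P0 Emcn+, with a log2FC of −11.06 ± 1.16. The mannose receptor Mrc1 had 0.253 and 0.426 CPM in MSC and 396 and 237 CPM in P0 Emcn+. In these 3 genes MSC replicate 1 stood under 0.5 CPM, and the groups did not overlap. Flt4, the VEGF-C receptor VEGFR-3, had 6.88 and 17.1 CPM against 807 and 483 CPM, with a log2FC of −5.71 ± 0.85. The exception was Adam23, a membrane protein without protease activity, with 47.9 and 126 CPM in MSC and 2.63 and 5.33 CPM in P0 Emcn+ (log2FC 4.50 ± 0.49). Cd36, a fatty acid and thrombospondin receptor, was not called, at 13.7 and 13.2 CPM in MSC and 27.3 and 31.7 CPM in P0 Emcn+.

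The largest contrasts toward P0 Emcn+ included genes of endothelium and genes of macrophages. Mmrn1 (multimerin 1, an extracellular glycoprotein of endothelium and platelets) had 0 counts in both MSC libraries and 132 and 175 CPM in P0 Emcn+, which is at least 3460-fold lower in MSC against 3 counts over the group. Cyp4b1, a cytochrome P450, had 0.14 and 1.31 CPM in MSC and 705 and 808 CPM in P0 Emcn+, with a log2FC of −10.00 ± 0.89. The proton-sensing receptor Gpr4 had 3 counts in MSC and 35.3 and 55.6 CPM in P0 Emcn+, a pooled ratio of 1014 (exact 95% counting interval 347 to 4920). The adhesion receptor Adgrg3 had 0.0281 and 0.213 CPM in MSC and 135 and 63.4 CPM in P0 Emcn+. Among the other genes of the 15 with the largest contrast were C1qa, C1qb and C1qc of the first complement component, and Ms4a6b, Ms4a4a and Ms4a6d of the membrane-spanning 4A family.

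All 19 tested genes of the macrophage and leukocyte list were called higher in P0 Emcn+, against 11.3% of all tested genes. Their median log2FC was −6.79, or −5.96 with the 3 genes at 0 counts in a group set to their bound, and all 19 were called without MSC replicate 2. C1qb had 0 counts in both MSC libraries and 57.2 and 55 CPM in P0 Emcn+, at least 1284-fold lower in MSC. The myeloid lysozyme Lyz2 had 13.9 and 26.7 CPM in MSC and 322 and 335 CPM in P0 Emcn+, with a log2FC of −3.96 ± 0.52. Csf1r, the receptor of macrophage growth factor, had 1.29 and 1.64 CPM against 20 and 25 CPM, and Ptprc (CD45), which the sort selects against, had 0.225 and 0.396 CPM against 7.73 and 4.02 CPM. The summed level of the list was 25.7 and 40.7 CPM in MSC, 991 and 892 CPM in P0 Emcn+, with 336 and 397 CPM in the Emcn− cells of the same cultures. Mrc1, Lyve1, Stab1 and Fcgr2b are known from macrophages as well as from sinusoidal endothelium, and the part that macrophage RNA has in their contrast was not tested, whereas Stab2 and Cdh5 mark endothelium. Skeletal muscle markers (Myod1, Myf5, Pax7) summed to at most 0.213 CPM in each of the 4 libraries. The wider skeletal muscle list summed to 6.65 and 6.76 CPM in MSC and 10.7 and 4.68 CPM in P0 Emcn+. Of its 6 tested genes 4 were called higher in MSC (66.7%, against 20.1% of all tested genes) and 1 higher in P0 Emcn+ (16.7%, against 11.3%). Their median log2FC was 2.7, and 2.49 without MSC replicate 2.

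Transcription factors of endothelium followed the same direction. Of 23 tested, 18 passed as higher in P0 Emcn+ (78.3%, against 11.3% of all tested genes) and 1 as higher in MSC (4.35%, against 20.1%). The median log2FC was −3.64. Sox17, a SoxF factor of developing and arterial endothelium, had 0.281 and 2.41 CPM in MSC and 214 and 112 CPM in P0 Emcn+. The ETS factors Erg and Fli1 had log2FC of −4.08 ± 0.97 and −3.64 ± 0.41, and Tal1, a factor of blood and endothelial lineages, −6.25 ± 1.47. The calls of Sox17 and Tal1 were lost with batch terms in the fit. Prox1, a lymphatic and venous factor, had 0.674 and 0.731 CPM in MSC and 8.3 and 10.7 CPM in P0 Emcn+. The factors Mecom, Nr2f2, Klf2 and Klf4 did not pass the limits, and the groups overlapped in the last 3, while Mecom was called without MSC replicate 1 (−2.19). Nr2f2, a venous factor that mesenchyme also expresses, had 31.6 and 78.4 CPM in MSC and 76.2 and 62.9 CPM in P0 Emcn+. Hey2, a Notch target, was the exception, with 3.37 and 6.94 CPM in MSC and 3 counts in P0 Emcn+, a pooled ratio of 97.3 (interval 33 to 474).

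Mesenchymal transcription factors were higher in MSC for 25 of 33 tested and higher in P0 Emcn+ for none, at a median log2FC of 3.66 and against 20.1% over all genes (23 and none without MSC replicate 2). Prrx1, a homeobox factor of limb and skull mesenchyme, had 458 and 739 CPM in MSC and 10.3 and 8.81 CPM in P0 Emcn+, with a log2FC of 6.02 ± 0.28. Runx2, the factor that commits cells to bone, had 77.9 and 56.8 CPM against 2.57 and 1.39 CPM, and Sox9, the corresponding factor of cartilage, had 173 and 89.9 CPM against 0.349 and 1.24 CPM. Sp7, whose promoter drives the Cre of the MSC mice, had 2.5 and 5.6 CPM in MSC and 0.0634 and 0.0773 CPM in P0 Emcn+ (log2FC 5.82 ± 1.13). Sp7 did not reach 5 CPM in MSC replicate 1 and so is not among the 11037 genes, while the groups did not overlap. Shox2 and Pitx1, factors of limb patterning, had log2FC of 6.84 ± 0.36 and 6.28 ± 0.73. Snai1 (log2FC 0.80 ± 0.21), Zeb1 (−0.60 ± 0.20) and Zeb2 (0.97 ± 0.26), known from epithelial to mesenchymal transition, did not pass the limits, while Snai2 (3.33 ± 0.21) and Twist1 (4.68 ± 0.45) did.

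**Figure D3:**
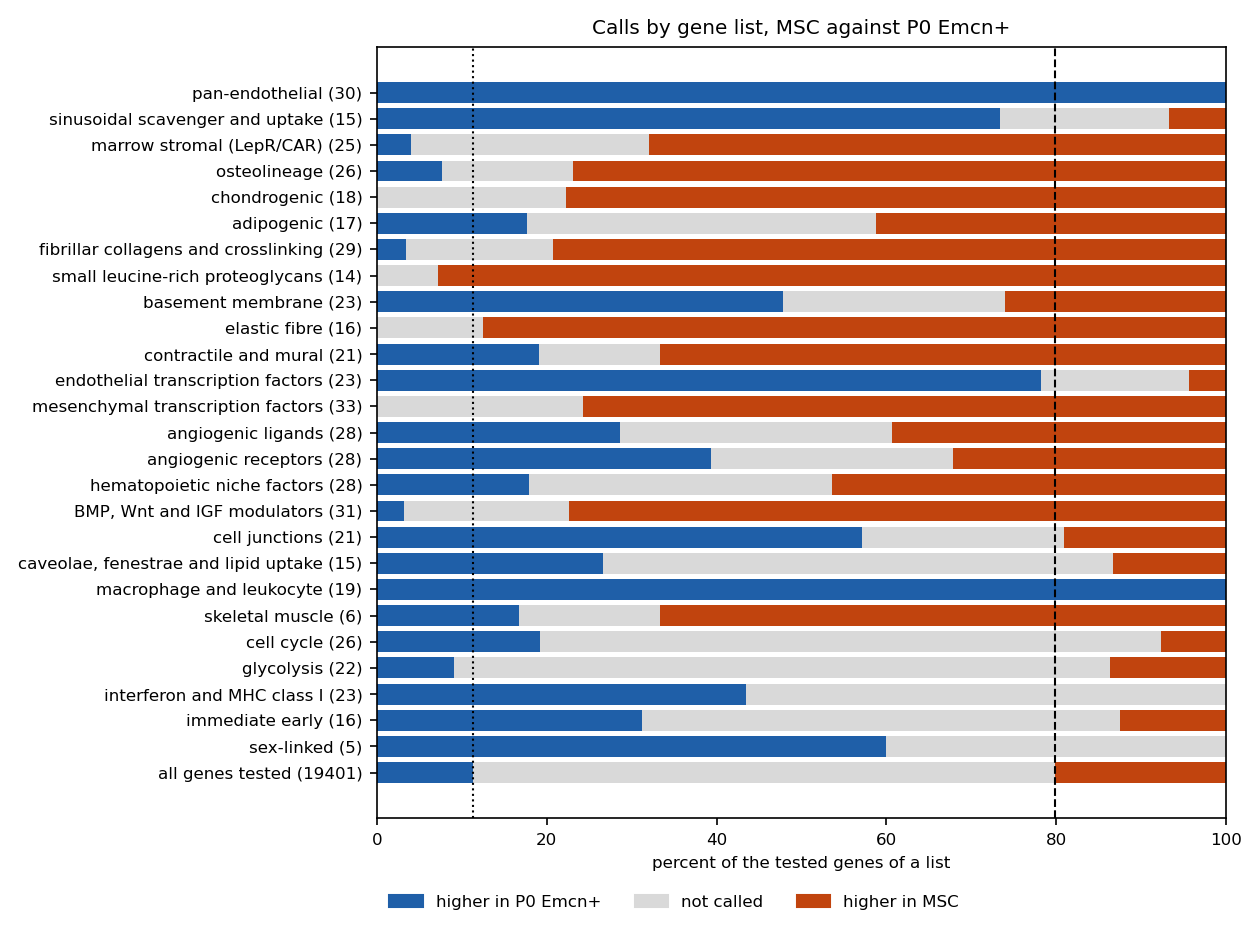
Percent of the tested genes of each list that were called higher in P0 Emcn+ (blue), not called (grey) or called higher in MSC (red), with the number tested in parentheses. The dotted and dashed lines carry the shares over all 19401 tested genes, 11.3% higher in P0 Emcn+ and 20.1% higher in MSC.

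Most of the tested fibrillar collagen and elastic fiber genes were higher in MSC, at 79.3% and 87.5% against 20.1% of all tested genes. The share of the fibrillar list higher in P0 Emcn+ was 3.45%, against 11.3%. Of 29 genes of fibrillar and associated collagens and their crosslinking, 23 were called higher in MSC and 1 higher in P0 Emcn+, with a median log2FC of 4.61 (23 and 2 without MSC replicate 2). Col3a1, a fibrillar collagen of vessels and reticular fibers, had 5471 and 3824 CPM in MSC and 44.3 and 70.7 CPM in P0 Emcn+. Col12a1, which binds to collagen fibrils, had 8272 and 3308 CPM against 18.8 and 12.3 CPM (log2FC 8.61 ± 0.67), and Lox, the enzyme that crosslinks collagen and elastin, had 6753 and 5646 CPM against 59.2 and 58.6 CPM (6.78 ± 0.27). The lysyl hydroxylase Plod1 went the other way, with 97.9 and 75.8 CPM in MSC and 592 and 322 CPM in P0 Emcn+ (−2.33 ± 0.42). Serpinh1, the collagen chaperone HSP47, did not pass, at 1275 and 1046 CPM in MSC and 727 and 1146 CPM in P0 Emcn+, where the groups overlapped. Elastic fiber genes were called higher in MSC for 14 of 16 and higher in P0 Emcn+ for none (median 4.33), or for 12 and none without MSC replicate 2, among them fibrillin 1 (Fbn1), at 898 and 1681 CPM against 36.6 and 58.1 CPM.

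Small leucine-rich proteoglycans, which coat collagen fibrils, were called higher in MSC for 13 of 14 (92.9%, against 20.1% of all tested genes). The median log2FC was 8.56, or 8.05 with Kera at its bound. Fmod (fibromodulin, chr1:134037254-134048277), whose promoter is given above, had 2015 and 1340 CPM in MSC and 0.222 and 0.232 CPM in P0 Emcn+, with a log2FC of 12.89 ± 1.08. Aspn (asporin) had 964 and 380 CPM against 0.38 and 0.27 CPM, and Lum (lumican) 767 and 289 CPM against 0.824 and 0.618 CPM. The contrast was smaller for Bgn (biglycan), with 4028 and 6399 CPM in MSC and 322 and 507 CPM in P0 Emcn+ (3.71 ± 0.36), and for Dcn (decorin), with 2195 and 1033 CPM against 8.78 and 43.5 CPM (6.03 ± 0.78). Kera (keratocan) had 0 counts in P0 Emcn+ and 18.2 and 1.89 CPM in MSC, at least 198-fold higher in MSC, but was not called with batch terms in the fit. Chad was not called, with 15 counts in MSC and 1 in P0 Emcn+. All 13 genes of the list that were tested without MSC replicate 2 were called there too.

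Basement membrane genes fell into both directions. Of 23 tested, 11 were called higher in P0 Emcn+ (47.8%, against 11.3% of all tested genes) and 6 higher in MSC (26.1%, against 20.1%). The other 6 were not called, and the median log2FC was −1.26. The counts were 10 and 5 without MSC replicate 2. The type IV collagen chains of most basement membranes, Col4a1 and Col4a2, had log2FC of −3.30 ± 0.36 and −2.87 ± 0.29, with Col4a1 at 452.5 and 957.5 CPM in MSC and at 7766 and 6615 CPM in P0 Emcn+. Perlecan (Hspg2) had 1323 and 974 CPM in MSC and 8383 and 6933 CPM in P0 Emcn+ (−2.67 ± 0.36), and the laminin chain Lama5 had 37.3 and 32.9 CPM against 546 and 532 CPM (−3.88 ± 0.59). The chains Col4a5 and Lama2 were higher in MSC, Col4a5 with 47 and 44.7 CPM against 1.2 and 2.13 CPM (4.85 ± 0.30) and Lama2 with 27.8 and 38.1 CPM against 3.8 and 8.89 CPM (2.44 ± 0.34). Lamb1, Lamb2 and Lama4 did not pass the limits. Sparc, a collagen-binding glycoprotein, stood at 5844 and 3083 CPM in MSC and at 5710 and 4203 CPM in P0 Emcn+, with overlapping groups and a log2FC of −0.08 ± 0.33.

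**Figure D4:**
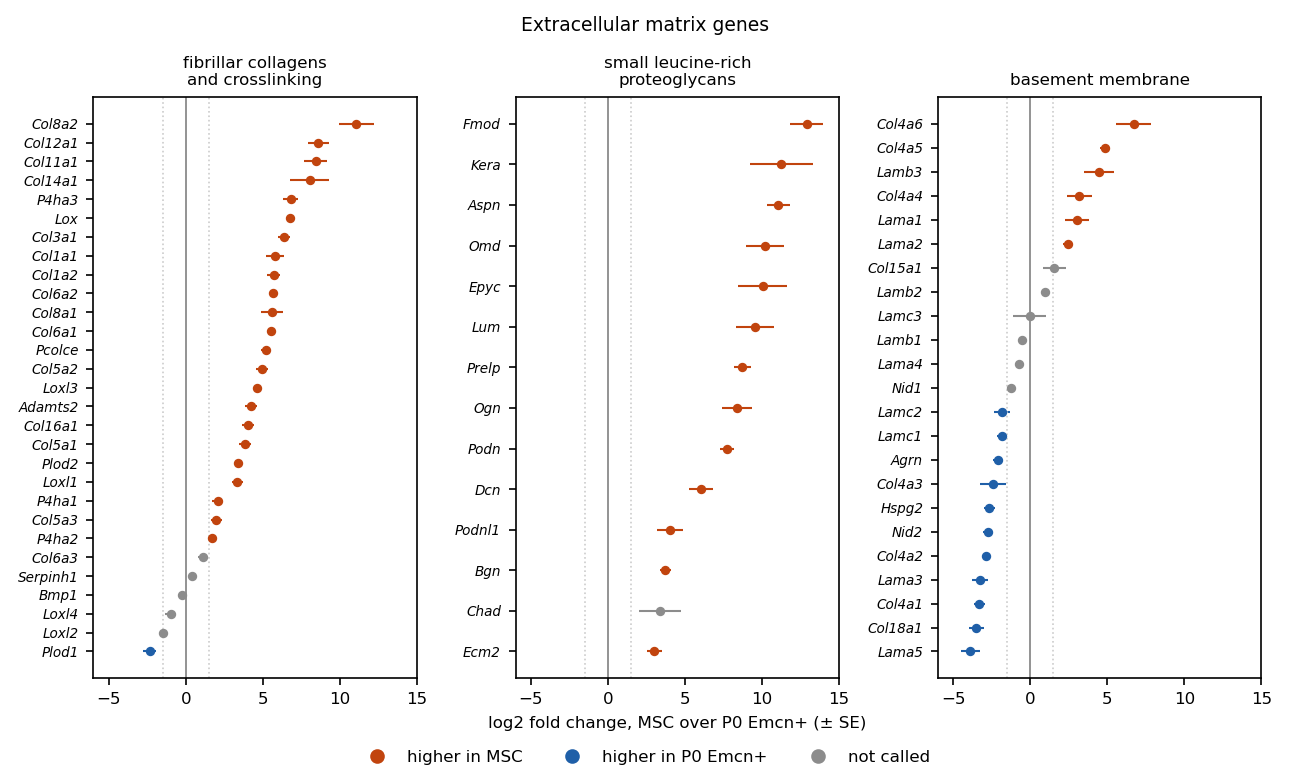
log2 fold change of MSC over P0 Emcn+ with its standard error for the tested genes of 3 matrix lists. Red points were called higher in MSC, blue points higher in P0 Emcn+ and grey points were not called, and dotted lines mark the limit of 1.5 in either direction. Of the small leucine-rich proteoglycans 13 of 14 lie to the right as called, while the basement membrane genes lie on both sides.

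The 10 genes with the most counts in MSC included Thbs1, Fn1, Lox, Col12a1, Bgn, Timp3 and Col3a1, which encode secreted proteins of the matrix. Thbs1 (thrombospondin 1, an inhibitor of angiogenesis) took 3.97% and 1.93% of all counts in the MSC libraries, at 39653.5 and 19303.5 CPM, and had 3636 and 4914 CPM in P0 Emcn+ (log2FC 2.86 ± 0.53). Fibronectin (Fn1) had 21376.5 and 21468 CPM in MSC and 4208 and 5428 CPM in P0 Emcn+ (2.21 ± 0.35), and the metalloproteinase inhibitor Timp3 had 3266 and 6042 CPM against 837 and 782 CPM (2.57 ± 0.45). Among the uncalled genes with the most counts were mt-Co1, Eef1a1, Vim, Actb, Flna and Fth1, with log2FC from −0.37 (mt-Co1) to 0.47 (Fth1). The 10 genes with the most counts held 11.6% and 9.21% of counts in the MSC libraries and 7.23% and 6.32% in the P0 Emcn+ libraries.

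Cartilage genes were called higher in MSC for 14 of 18 tested and higher in P0 Emcn+ for none, and for 15 of 17 without MSC replicate 2. In the fit of all libraries 77.8% were higher in MSC, against 20.1% of all tested genes. The median log2FC of the list was 7.34, or 5.47 with the 6 genes at 0 counts in P0 Emcn+ set to their bound. Col2a1, the main collagen of cartilage, had 1418 and 2095 CPM in MSC and 0.982 and 0.618 CPM in P0 Emcn+, with a log2FC of 11.13 ± 1.37. Comp, a matrix protein of cartilage and tendon, had 1190 and 727 CPM against 0.38 and 1.7 CPM, and Col11a1 had 2631 and 672 CPM against 4.5 and 5.64 CPM. Other cartilage genes differed strongly between the MSC libraries or were low there. Cnmd (chondromodulin), an inhibitor of angiogenesis, had 64.2 and 7 CPM in MSC and 0 counts in P0 Emcn+, at least 704-fold higher in MSC. Col10a1, of hypertrophic cartilage, had 8.48 and 10.1 CPM in MSC and 0 counts in P0 Emcn+, at least 178-fold higher, and aggrecan (Acan), the main proteoglycan of cartilage, had only 1.04 and 0.152 CPM in MSC and was not called, with an adjusted p of 0.055, though it was called without MSC replicate 2.

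Bone genes were called higher in MSC for 20 of 26 tested and higher in P0 Emcn+ for 2, with a median log2FC of 4.93 (18 and 1 without MSC replicate 2). With all libraries 76.9% were higher in MSC and 7.69% in P0 Emcn+, against 20.1% and 11.3% of all tested genes. The alkaline phosphatase Alpl had 106 and 48.9 CPM in MSC and 0.412 and 0.193 CPM in P0 Emcn+, with a log2FC of 8.02 ± 0.54. Tnfrsf11b (osteoprotegerin, the decoy receptor of RANKL) had 440 and 453 CPM in MSC and 0.507 and 0.734 CPM in P0 Emcn+, whereas its ligand Tnfsf11 (RANKL) had only 1.23 and 4.29 CPM against 0.0951 and 0.0386 CPM (5.28 ± 1.80). Tnfsf11 was not called without MSC replicate 2 (4.15) or without P0 Emcn+ replicate 1 (6.02) or 2 (4.81). Bglap (osteocalcin, of late osteoblasts) had 1.52 and 1.07 CPM in MSC and 2 counts in P0 Emcn+, a pooled ratio of 37.3 (interval 10 to 313), whose call was lost without MSC replicate 1 and without either P0 Emcn+ library (log2FC from 4.03 to 8.28). Sost had 3 counts in MSC and 0 in P0 Emcn+. Ibsp (bone sialoprotein) was not called, at 22.7 and 14 CPM in MSC and 1.27 and 4.79 CPM in P0 Emcn+. Higher in P0 Emcn+ were the sphingomyelinase Smpd3, at 0.814 and 2.19 CPM in MSC and 11.7 and 46.2 CPM in P0 Emcn+ (log2FC −4.21 ± 1.29), and Fgf23. Smpd3 was not called without MSC replicate 1 (−3.68), MSC replicate 2 (−5.07) or P0 Emcn+ replicate 2 (−2.94). Fgf23 was not called with batch terms in the fit, after thinning, or with the fold change itself tested against 1.5.

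The adipogenic list was divided, with 7 of 17 genes called higher in MSC and 3 higher in P0 Emcn+, at a median log2FC of 0.89, and 5 and 4 without MSC replicate 2. In the fit of all libraries the share higher in MSC was 41.2%, against 20.1% of all tested genes. The share higher in P0 Emcn+ was 17.6%, nearer to the 11.3% of all tested genes. Lipoprotein lipase (Lpl) had 250 and 489 CPM in MSC and 24.7 and 23.7 CPM in P0 Emcn+ (3.98 ± 0.34), and adiponectin (Adipoq) had 39.4 and 53.8 CPM against 5.99 and 1.58 CPM (3.66 ± 0.78). Pparg, the nuclear receptor that directs fat differentiation, was lower in MSC, at 12.7 and 19 CPM against 52.8 and 40.8 CPM (−1.51 ± 0.33), a value at the limit that was not called under most alternative settings, among them without MSC replicate 1 (−1.27) or P0 Emcn+ replicate 1 (−1.34). Also lower in MSC was the fatty acid binding protein Fabp4, which ECs also express, at 77.4 and 105 CPM against 523 and 361 CPM (−2.23 ± 0.37).

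Hematopoietic niche factors were called higher in MSC for 13 of 28 tested (46.4%, against 20.1% of all tested genes). They were called higher in P0 Emcn+ for 5 (17.9%, against 11.3%), and the median log2FC of the list was 1.28. Without MSC replicate 2 these counts were 10 and 5. Cxcl12, the chemokine that retains hematopoietic stem cells in the marrow, had 1453 and 4601 CPM in MSC and 217 and 407 CPM in P0 Emcn+, with a log2FC of 3.33 ± 0.63 (adjusted p = 0.0016). Kit ligand (Kitl) had 156 and 322 CPM in MSC and 70.6 and 64.9 CPM in P0 Emcn+ (1.87 ± 0.35), and was not called without MSC replicate 2 (1.27). Spp1 (osteopontin) had 2276 and 3478 CPM against 180 and 61.2 CPM (4.63 ± 0.85), and Lif 18.7 and 22.8 CPM against 0.317 and 0.966 CPM (5.09 ± 0.64). The adhesion molecule Vcam1 did not pass, at 275 and 338 CPM in MSC and 233 and 546 CPM in P0 Emcn+, where the groups overlapped. Higher in P0 Emcn+ were the Notch ligands Dll4 and Dll1, Ccl2, Tgfb1 and Tnfsf10, of which Dll4 lost its call with batch terms in the fit. Dll1 had 1.15 and 1.86 CPM in MSC and 35.4 and 43.3 CPM in P0 Emcn+ (−4.65 ± 0.51), and the monocyte chemokine Ccl2 had 11.3 and 41.7 CPM against 350 and 700 CPM (−4.26 ± 0.82).

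Markers of LepR+ and CXCL12-abundant reticular stroma were called higher in MSC for 17 of 25 tested and higher in P0 Emcn+ for 1, with a median log2FC of 3.56 (16 and 1 without MSC replicate 2). In the fit of all libraries 68.0% were higher in MSC and 4.0% in P0 Emcn+, against 20.1% and 11.3% of all tested genes. Lepr itself, the leptin receptor, was not called, at 1.96 and 9.28 CPM in MSC and 10.6 and 7.92 CPM in P0 Emcn+. The groups thus overlapped in the gene that names this stroma. Pdgfra and Pdgfrb, receptors of platelet-derived growth factors, were called higher in MSC, with Pdgfrb at 321 and 620 CPM against 16.2 and 9.82 CPM (5.22 ± 0.44). Foxc1, a factor of these stromal cells, had 140 and 115 CPM in MSC and 10.6 and 10.8 CPM in P0 Emcn+, while Ebf3 overlapped, at 13.8 and 40.8 CPM in MSC and 26.9 and 25 CPM in P0 Emcn+. Esm1, a proteoglycan known from angiogenic ECs, was higher in P0 Emcn+, at 2.44 and 19.3 CPM in MSC and 369 and 52.7 CPM in P0 Emcn+ (−4.25 ± 1.25), and was not called without MSC replicate 1 (−3.43) or P0 Emcn+ replicate 1 (−2.28).

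Angiogenic ligands and receptors gave calls in both directions. Of the ligands 39.3% were called higher in MSC and 28.6% higher in P0 Emcn+, against 20.1% and 11.3% of all tested genes. For the receptors these shares were 32.1% and 39.3%. Among ligands 11 of 28 were called higher in MSC and 8 higher in P0 Emcn+ (median log2FC 1.12, and 11 and 9 without MSC replicate 2), and among receptors 9 of 28 were higher in MSC and 11 higher in P0 Emcn+ (median −0.21). Angpt1, the ligand that activates Tek, had 63.1 and 63.3 CPM in MSC and 2.22 and 1.82 CPM in P0 Emcn+ (5.02 ± 0.29), whereas Angpt2, its context-dependent antagonist, had 6.76 and 114 CPM in MSC and 1769 and 2291 CPM in P0 Emcn+ (−5.04 ± 1.11). In MSC the level of Angpt2 differed by 16.8 times between the replicates. Pdgfb, which ECs secrete to recruit mural cells, had 0.758 and 10.8 CPM in MSC and 216 and 188 CPM in P0 Emcn+ (−5.10 ± 1.31), a call lost with batch terms in the fit. Its receptor Pdgfrb was higher in MSC. Vegfd, a ligand of Flt4 and Kdr, had 159 and 567 CPM in MSC and 3.01 and 9.74 CPM in P0 Emcn+ (5.89 ± 0.83). Kdr, the main VEGF receptor VEGFR-2, had 1.26 and 8.89 CPM in MSC and 587 and 288 CPM in P0 Emcn+ (−6.40 ± 1.10). Vegfa (1.24 ± 0.34) and Vegfc (1.497 ± 0.29) did not pass the limits, nor did the co-receptors Nrp1 (0.60 ± 0.37) and Nrp2 (−0.63 ± 0.38). Vegfa was called without P0 Emcn+ replicate 1 (2.05). Vegfc lay at the limit and was called without MSC replicate 1 (1.62) and, among other settings, with upper-quartile scaling, DESeq2 or a stricter filter.

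Among the other growth factors, guidance cues and their receptors were also calls in both directions. Hgf had 101 and 297 CPM in MSC and 2.5 and 2.09 CPM in P0 Emcn+ (6.48 ± 0.50), while its receptor Met was not called, at 30.4 and 28.1 CPM in MSC and 79 and 85.8 CPM in P0 Emcn+ (−1.43 ± 0.35, with −1.52 and a call without MSC replicate 1 or P0 Emcn+ replicate 1). Fgf7 had 336 and 349 CPM against 1.2 and 1.66 CPM (7.97 ± 0.38), and Fgf2 110 and 269 CPM against 0.856 and 1.24 CPM (7.56 ± 0.50). Slit2 and Slit3 were higher in MSC (6.30 ± 0.55 and 5.82 ± 0.61), and the endothelial receptor Robo4 was higher in P0 Emcn+, at 713 and 734 CPM against 1.09 and 16.1 CPM in MSC. Sema3c, a secreted semaphorin, had 785 and 131 CPM in MSC and 0.349 and 1.47 CPM in P0 Emcn+ (9.10 ± 1.52), and Plxnd1, a semaphorin receptor of ECs, had 34.7 and 114 CPM in MSC and 2274 and 1602 CPM in P0 Emcn+ (−4.66 ± 0.50). Notch3, of mural and stromal cells, was higher in MSC (4.74 ± 0.35), and Notch4, of ECs, in P0 Emcn+ (−6.73 ± 1.11).

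**Figure D5:**
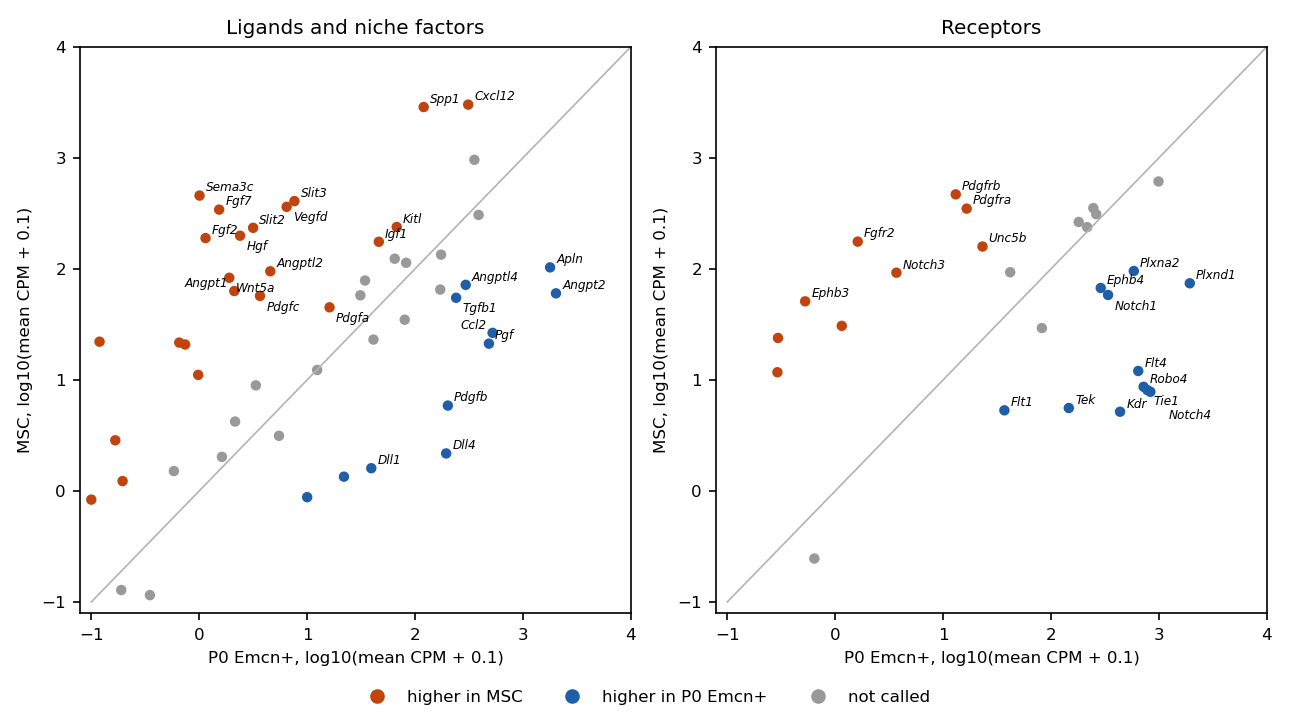
Mean level in MSC against mean level in P0 Emcn+, both as log10(mean CPM + 0.1) over 2 libraries, for ligands and niche factors on the left and receptors on the right. Red points were called higher in MSC, blue points higher in P0 Emcn+ and grey points were not called. Angpt1 and Vegfd lie above the line of equal level, and Angpt2, Pdgfb, Tek and Kdr below it, and names stand beside called genes above 1.5 on either axis.

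Modulators of BMP, Wnt and IGF signaling were called higher in MSC for 24 of 31 tested and higher in P0 Emcn+ for 1, with a median log2FC of 4.67 (23 and 2 without MSC replicate 2). With all libraries 77.4% were higher in MSC and 3.23% in P0 Emcn+, against 20.1% and 11.3% of all tested genes. Sfrp1, a secreted Wnt inhibitor, had 353 and 3816 CPM in MSC and 5.01 and 7.61 CPM in P0 Emcn+ (8.41 ± 1.26), so it was high in both MSC libraries and 10.8 times higher in replicate 2. Rspo2 and Rspo3, which strengthen Wnt signals, had log2FC of 6.09 ± 0.59 and 7.71 ± 0.55. The BMP antagonist Grem1 had 41 and 139 CPM against 4.06 and 6.84 CPM (4.10 ± 0.87), and Igf2 113 and 93.4 CPM against 4.31 and 2.09 CPM (5.06 ± 0.70). Igfbp3, an IGF-binding protein, was the exception, at 51 and 97.7 CPM in MSC and 2225 and 1066 CPM in P0 Emcn+ (−4.42 ± 0.95). Bmp4 was not called, at 94.5 and 133 CPM in MSC and 61.5 and 104 CPM in P0 Emcn+, and neither was Ccn1, with overlapping groups.

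Contractile and mural genes were called higher in MSC for 14 of 21 tested and higher in P0 Emcn+ for 4, with a median log2FC of 3.15 (13 and 4 without MSC replicate 2). With all libraries 66.7% were higher in MSC and 19.0% in P0 Emcn+, against 20.1% and 11.3% of all tested genes. Acta2 (smooth muscle α-actin) had 789 and 1036 CPM in MSC and 7 and 29.9 CPM in P0 Emcn+ (5.69 ± 0.60), and Cspg4 (NG2) had 165 and 68.9 CPM against 1.05 and 1.7 CPM (6.49 ± 0.58). Myh11 and Rgs5, of smooth muscle cells and pericytes, were again far higher in MSC replicate 2, Myh11 at 2.22 and 41.1 CPM in MSC and 0.158 and 0.734 CPM in P0 Emcn+ (5.66 ± 1.35, and not called without that library, 2.40, or without P0 Emcn+ replicate 1, 4.88). Kcnj8 and Abcc9, the subunits of a potassium channel known from pericytes, were higher in P0 Emcn+. The study lists both genes among its markers of sinusoidal or venous ECs. Kcnj8 had 0.674 and 3.38 CPM in MSC and 206 and 102 CPM in P0 Emcn+ (−6.22 ± 1.05), and Abcc9 had 1.09 and 16.1 CPM against 268 and 197 CPM (−4.73 ± 0.94). Mcam (CD146), of ECs and pericytes, was higher in P0 Emcn+ too (−3.52 ± 0.81).

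Of 21 cell junction genes 12 passed as higher in P0 Emcn+ against 4 in MSC, with a median log2FC of −2.64 (13 and 4 without MSC replicate 2). In the fit of all libraries 57.1% were higher in P0 Emcn+ and 19.0% in MSC, against 11.3% and 20.1% of all tested genes. The share higher in MSC was thus near that of all tested genes. Cldn5, the endothelial claudin, had 0.225 and 2.59 CPM in MSC and 407 and 246 CPM in P0 Emcn+. The classical cadherins went in different directions, as N-cadherin (Cdh2), with 172 and 146 CPM in MSC and 9.16 and 11.3 CPM in P0 Emcn+ (4.02 ± 0.25), and Cdh11, with 756 and 803 CPM against 9.95 and 6.07 CPM (6.66 ± 0.34), were higher in MSC. Among 15 genes of caveolae, fenestrae and lipid uptake 4 passed as higher in P0 Emcn+ (26.7%, against 11.3% of all tested genes) and 2 as higher in MSC (13.3%, against 20.1%), or 1 in MSC without its replicate 2. Plvap, of fenestral diaphragms, had 0.926 and 3.04 CPM in MSC and 551 and 443 CPM in P0 Emcn+ (−7.93 ± 0.86), whereas Cav1, the caveolar coat protein, was not called, at 408 and 365 CPM in MSC and 368 and 833 CPM in P0 Emcn+.

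Of 26 cell cycle genes tested, 5 passed as higher in P0 Emcn+ (19.2%, against 11.3% of all tested genes) and 2 as higher in MSC (7.69%, against 20.1%). Their median log2FC was −1.56, and both MSC libraries lay below both P0 Emcn+ libraries in 23 of them, against 38.4% of all tested genes. The proliferation marker Mki67 had 41.2 and 49.6 CPM in MSC and 240 and 261 CPM in P0 Emcn+ but did not pass (log2FC −2.41 ± 1.18, adjusted p = 0.11). The replication helicase subunit Mcm3 had 13.3 and 17.3 CPM against 102 and 85.6 CPM and did (−2.56 ± 0.44). The count of 5 moved between 1 and 14 over the alternative settings, with 3 called without MSC replicate 2. The 14 came from a fit of only the 4 compared libraries. The main fit takes its spread from the other libraries too, such as P0 Emcn−, where the list summed to 2848 and 907 CPM. The D-type cyclins were higher in MSC, Ccnd1 with 1260 and 1053 CPM against 160 and 313 CPM (2.36 ± 0.40) and Ccnd2 with 1999 and 1653 CPM against 439 and 342 CPM (2.29 ± 0.33).

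Genes of the interferon response and MHC class I were called higher in P0 Emcn+ for 10 of 23 tested (43.5%, against 11.3% of all tested genes). None was called higher in MSC, and the median log2FC was −1.35. H2-K1, a class I heavy chain, had 123 and 116 CPM in MSC and 670 and 638 CPM in P0 Emcn+ (−2.39 ± 0.29). Whether its reads are shared with H2-D1 and other class I genes was not tested. The interferon-induced Rsad2 had 0.393 and 0.731 CPM against 41.9 and 86.4 CPM (−6.77 ± 1.05), while Ifit1 and Ifit3 were not called. Immediate early genes were higher in P0 Emcn+ for 5 of 16 (31.2%, against 11.3% of all tested genes) and higher in MSC for 2 (12.5%, against 20.1%). Among the former was Fos, at 20.9 and 25.1 CPM in MSC and 167 and 100 CPM in P0 Emcn+ (−2.48 ± 0.48). Of 22 glycolysis genes 3 were called higher in MSC (13.6%, against 20.1% of all tested genes) and 2 higher in P0 Emcn+ (9.09%, against 11.3%), with a median log2FC of 0.04. The calls of Pgk1 and Gapdh are given as uncertain, since both genes have near-identical copies and the part of shared reads was not tested. The copy Pgk1-rs7, named after its values were seen, had 139 and 122 CPM in MSC and 0.222 and 0 CPM in P0 Emcn+, while Pgk1 had 65.4 and 64.1 CPM against 566 and 368 CPM.

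Genes of the Y chromosome differed as well. Ddx3y had 1 count in MSC and 76 and 27.7 CPM in P0 Emcn+, a pooled ratio of 3714 (interval 666 to 146754), and Eif2s3y had 3 counts in MSC and 40.5 and 12.2 CPM in P0 Emcn+. Xist, expressed from the inactive X chromosome, had 1035 and 826 CPM in MSC and 476 and 647 CPM in P0 Emcn+. Uty, another gene of the Y chromosome, was not called and overlapped, at 17.9 and 42.6 CPM in MSC and 27.8 and 8 CPM in P0 Emcn+, though without P0 Emcn+ replicate 1 it was called (1.93). Each P0 Emcn+ library held Xist together with Ddx3y and Eif2s3y, while MSC held Xist and almost no counts of those Y genes. Why Uty was nevertheless present in MSC was not tested. The labels do not give the sex of each library. Where sex differed between the groups it cannot be told apart from cell type, and its part in other contrasts was not tested.

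Several of the largest contrasts toward MSC were shared by passaged libraries. The largest fitted log2FC toward MSC belonged to Galnt2l, with 203 and 263 CPM in MSC and 0 counts in P0 Emcn+. Its counts give only a bound (at least 4442-fold higher), so they do not settle its rank. Galnt2l stood at 189 to 227 CPM in the passaged Emcn− BMECs of batch c as well and at 0 in P0 Emcn− cells. The histone pseudogene H3f3c had 23.6 and 15.7 CPM in MSC, 0 counts in P0 Emcn+ and 31.4 to 38.2 CPM in the passaged cells of batch c. Over all genes, 34 had at most 3 counts in each of the 6 P0 and lung libraries and at least 10 CPM in all 5 libraries of the MSC batch, and 32 of them also had at least 10 CPM in all passaged libraries of batch b. All 34 were called higher in MSC, and 4 of them belong to the 11037 genes described here: Cox6c2, H3f3c and the genes ENSMUSG00000076036 and ENSMUSG00000107260, whose symbol column repeats the identifier. Galnt2l was not among the 34. The 32 genes thus separated MSC and all passaged libraries from the P0 and lung libraries, with which they share no batch, and the cause was not tested. The reverse pattern held for 2 genes.

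Other top contrasts toward MSC had lower values in those passaged cells than in either MSC library. Scg2 (secretogranin 2, of secretory granules) had 253 and 915 CPM in MSC, 3 counts in P0 Emcn+ (pooled ratio 10919, interval 3736 to 52952) and at most 0.574 CPM in the passaged cells of batch c. Egfl6, an EGF-like matrix protein, had 85 and 117 CPM in MSC, 2 counts in P0 Emcn+ and at most 3.7 CPM there. C1qtnf3, a secreted C1q and TNF relative, had 56.8 and 18.8 CPM in MSC and 0 counts in P0 Emcn+, at least 738-fold higher in MSC, and at most 0.215 CPM there. Penk (proenkephalin, the precursor of opioid peptides) had 3072 and 523 CPM in MSC and 0.158 and 0.464 CPM in P0 Emcn+ (12.61 ± 1.72), with 27.2 to 79.4 CPM in the passaged cells. Col8a2, a collagen of basement membranes and cornea, had 376 and 132 CPM in MSC and 7 counts in P0 Emcn+ (11.06 ± 1.13), with 1.36 to 4.92 CPM in the passaged cells. Ifi202b had 17.9 and 31 CPM in MSC and 0 counts in P0 Emcn+, at least 463-fold higher in MSC, and at most 0.0717 CPM in the passaged cells.

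The Emcn− cells sorted from the same P0 cultures were set beside these values, with the caution that both comparisons use the same MSC libraries. Between MSC and P0 Emcn− 18.7% of all tested genes were called. The 8 mesenchymal markers (Prelp, Col1a1, Col1a2, Pdgfra, Pdgfrb, Prrx1, Lum, Dcn) summed to 18530 and 10770 CPM in MSC, 204 and 246 CPM in P0 Emcn+, with 16810 and 13030 CPM in P0 Emcn−. Col1a1 had 5783 and 2891 CPM in P0 Emcn− and was not called between MSC and P0 Emcn− (log2FC −0.34, edgeR adjusted p = 0.59), nor was Cdh5 (0.43, adjusted p = 0.82), which had 119 and 6.35 CPM there. MSC and P0 Emcn− overlapped in Cdh5, and its MSC level was far higher in replicate 2 than in replicate 1. Prelp had 114 and 213 CPM in P0 Emcn− and was called higher in MSC (4.47), as were Fmod (9.33), with 1.16 and 5.25 CPM in P0 Emcn−, and Col2a1 (9.66), with 0.705 and 4.84 CPM. Stab2, with 11.1 and 1.92 CPM in P0 Emcn−, was lower in MSC than in those cells (−2.79, adjusted p = 0.011), a call lost without MSC replicate 2 (−2.57) or P0 Emcn− replicate 1 (−0.92).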

How the data were processed

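RNA-seq was analysed from a table of 44674 genes by 15 libraries in 8 conditions and 4 batches, of which 2 MSC and 2 P0 Emcn+ libraries were compared and the other 11 entered the fit. The deposited values are whole-number counts per gene. Per the study's methods the authors sorted cells by flow cytometry, extracted RNA with Trizol, prepared libraries with KAPA RNA HyperPrep, aligned reads with STAR to GRCm38, and estimated counts with Salmon and tximport; rounding to whole numbers and the handling of reads shared by near-identical genes are not given in the sources used here, and the latter can move counts between copies. The study's methods name another Illumina sequencer for the first batch of biological replicates than for the later ones. Which libraries these were is not given there, and the part of the sequencer in the contrasts was not tested. The submitters' processing notes name GRCm38, STAR and Salmon.

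Counts were fitted with edgeR 4.0.16 in R 4.3.3 (filterByExpr with a minimum count of 10 and a minimum total of 15, TMM factors, 1 coefficient per condition, quasi-likelihood test), which left 19401 genes, 7 residual and 3.07 prior degrees of freedom, and p-values were adjusted by Benjamini-Hochberg over all of them. The limits, an adjusted p of 0.05 and a log2 fold change of 1.5, follow the study, which applied them to shrunken values from DESeq2. Standard errors (±) were back-calculated as the size of the log2 fold change divided by the square root of the quasi-likelihood F statistic. CPM values are counts per 1000000 counts of the library. A gene with 0 counts in a group is given as a bound against 3 counts over the group, and 1 with 1 to 3 counts as a pooled ratio with an exact 95% interval, both for counting error only. Gene coordinates are those of GENCODE M21 on GRCm38. The steps were tested on simulated data. Replicates differed by more than sampling noise (chi-square per degree of freedom 128.9 in MSC and 68.42 in P0 Emcn+).

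The genes described, the 27 lists (538 genes) and the tests were chosen with earlier results of these data known, so the lists are not independent evidence of a direction. Genes named were the 4 markers, list members, the 15 called genes with the largest contrast in each direction (at least 10 CPM in the higher group and no overlap), the 10 with the most counts in each group and the 10 uncalled genes with the most counts and a log2 fold change under 0.5 in size. Pgk1-rs7 and Cox6c2 were named after their values were seen. Alternatives were other scaling factors, DESeq2 1.42.0 with and without ashr 2.2.63, other filters, limits and library subsets, a replicate block, batch terms, thinning, and leaving out each library.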

Additional observations from a re-analysis of the deposited data

How the results depend on the processing

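Each group had 2 libraries, and batch, reporter line, tamoxifen treatment and medium all differed between MSC and P0 Emcn+. No alternative separates cell type from these, or from sex, since Y-linked transcripts differed too. The counts of 3898 genes higher in MSC and 2184 higher in P0 Emcn+ became 2574 and 1238 when the fold change itself was tested against 1.5 (glmTreat), and 5560 and 4436 with no fold change limit. DESeq2 gave 3646 and 2013, and 3422 and 1801 with ashr, and the other scalings, filters, fits and thinning stayed within 1.5 times. Leaving out each library gave 3102 to 3462 and 1740 to 2102. Calls higher in MSC made up 64.1% of all calls, and 55.6% with no fold change limit.

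The replicate numbers do not pair the libraries, since both MSC libraries share a batch while the P0 Emcn+ libraries do not, and deviations of libraries with the same number correlated at −0.042. With the replicate number as a block the counts were 3930 and 2186, and 5936 of the 6082 calls kept their call and direction.

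Of the list counts under alternatives, 871 of 918 stayed within 1.5 times. Cell cycle genes higher in P0 Emcn+ ranged from 1 to 14, immediate early genes from 2 to 7 and interferon genes from 7 to 16. With batch terms Dll4, Fgf23, Kera, Pdgfb, Pparg, Sox17, Tal1 and Tnfsf11 lost their call. Pparg lost its call under most alternatives, and the cause was not tested. Over all tested genes 18.7% were called between MSC and P0 Emcn−. Against P0 Emcn−, 208 of the 545 tested genes that were list members or met the naming rule were called, and 164 to 217 when a library was left out.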
